A study of Caenorhabditis elegans with 6 samples.

Results

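The fbxa, fbxb and fbxc families are groups of F-box genes of the nematode Caenorhabditis elegans, and 22G-RNA counts on them were compared between wild-type worms and lotr-1 mutants. All protein-coding genes whose symbol begins with fbxa-, fbxb- or fbxc- in the annotation of the WBcel235 genome build were taken as members. This gave 322 members among 19725 protein-coding genes and 22336 counted loci, with 170 fbxa, 104 fbxb and 48 fbxc genes. The counts came from whole gravid adults, collected 63 hours after plating, with 3 libraries of the wild-type strain N2 and 1 library each of lotr-1(xf58) I, lotr-1(xf60) I and lotr-1(xf61) I. The xf58 allele lacks most of the LOTUS domain with the reading frame kept, whereas the study's gene model shows a frameshift and a stop codon for xf60 and xf61. The labels name no other allele, transgene or treatment, and the study treated the 3 alleles as triplicates.

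F-box proteins are the exchangeable subunits of SCF ubiquitin ligases. The F-box binds a Skp1-related protein, SKR in C. elegans, which is held by the cullin CUL-1, and the rest of the F-box protein recruits the substrate to be ubiquitinated. Nematodes have expanded these genes into large, fast-evolving families that lie in clusters of close paralogs. The 22G-RNAs are small RNAs made by RNA-dependent RNA polymerases on transcripts, antisense to them, and are bound by worm-specific Argonautes of the WAGO group and by CSR-1. LOTR-1 is a germ granule protein with LOTUS and Tudor domains that binds the helicase ZNFX-1. A 22G-RNA count measures the small RNAs made against a gene, not the mRNA of that gene or its protein.

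The libraries held between 3706296 and 4520488 counts on all loci. On the lotr-1 gene itself, from which the alleles remove sequence, 245, 293 and 275 counts lay in wild-type, against 88, 20 and 47 in the mutants (xf58, then xf60, then xf61). The mutant libraries differed from one another more than the wild-type libraries did, with an edgeR common dispersion of 0.116 against 0.0018. Between pairs of libraries, the chi-square of the counts per degree of freedom was 66.3 for xf58 and xf60 and 55.2 for xf58 and xf61. It was 10.3 for xf60 and xf61, and 1.58 to 2.03 between wild-type libraries. The sperm markers examined were all genes of the msp family and a few others, such as fer-1, so they are not independent of one another. Of these, 14 of 40 passed the filter on low counts, of which 11 rose and 1 fell. Over all tested loci 18.8% rose and 17.6% fell. Summed normalised counts of the sperm markers were 301 to 382 in wild-type and 1101 to 1559 in the mutants. Of the oocyte and early embryo markers, 10 of 12 passed the filter, and perm-2 was at 0 throughout. With TMM scaling 0 were called by edgeR (5 at an unadjusted p under 0.05), and the DESeq2 Wald test called 0. Their sums were 1171 to 1243 in wild-type and 1005 to 1109 in the mutants. Scaled by total counts instead, 8.68% of all tested loci rose and 44.6% fell. Of the markers, 0 of the oocyte and early embryo genes then rose and 5 fell, and 10 sperm markers rose and 1 fell. The part of these markers in the results on the F-box genes was not tested. Whole animals were sampled, so fewer germ cells and fewer 22G-RNAs per germ cell cannot be told apart.

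Of the 322 members, 16 had no count in any library and 161 passed the filter of edgeR on low counts. The tested share was 42.9% for fbxa (73 genes), 63.5% for fbxb (66 genes) and 45.8% for fbxc (22 genes), against 43.3% of all protein-coding genes. No member outside the tested set exceeded 20 counts in a library, and these genes together held 0.556% of the members' wild-type counts. Among the untested members was a run of 10 fbxc genes on chromosome IV that carried only 4 distinct symbols, with summed normalised counts of 37.2 to 42.1 in wild-type and 31.2 to 43.3 in the mutants. Values for the members that passed the filter therefore do not stand for all members.

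The 3 subfamilies together took a small share of the 22G-RNAs. They held 2.02%, 2.03% and 2.01% of all counts in wild-type, against 2.37%, 2.15% and 2.17% in xf58, xf60 and xf61. All 3 mutant libraries were above all wild-type libraries, and a two-sided exact permutation test of 3 libraries against 3 cannot give a p below 0.1. For fbxa the share was 1.00% ± 0.00883 (SD, n = 3) in wild-type libraries and 1.28% ± 0.0451 (SD, n = 3) in mutant ones, without overlap. For fbxb the shares were 0.656% ± 0.00367 (SD, n = 3) and 0.612% ± 0.0409 (SD, n = 3), and the xf58 value of 0.653% was level with the wild-type libraries. For fbxc they were 0.363% ± 0.00426 (SD, n = 3) and 0.340% ± 0.0433 (SD, n = 3), and the groups overlapped, with xf58 highest at 0.390% and xf61 lowest at 0.314%. The 95% Wilson interval of the xf58 share of fbxc was 0.384% to 0.397%, and such intervals cover counting error only.

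**Figure D1:**
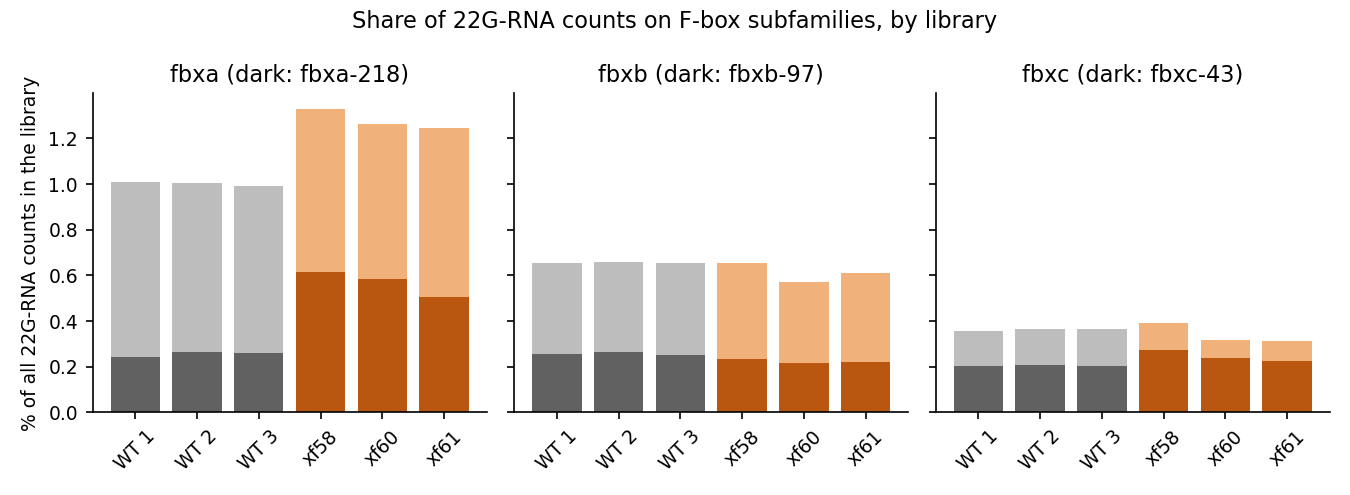
The bars give the percent of all 22G-RNA counts of a library that lay on fbxa, fbxb or fbxc genes, with the 3 wild-type (WT) libraries in grey and the 3 lotr-1 libraries in orange, and the dark part of each bar is the member with the most counts. The dark fbxa-218 part was larger in all 3 mutant libraries, while the whole fbxb bars stayed between 0.571% and 0.660%.

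A few genes carried most of these counts. The 5 members with the most counts held 47.8% of the members' wild-type counts. In fbxa, fbxa-218 (WBGene00013036, chromosome III) held 25.6% of the subfamily's counts in wild-type and 44.4% in the mutants. Without it, the fbxa share was 0.745% ± 0.0162 (SD, n = 3) in wild-type libraries and 0.710% ± 0.031 (SD, n = 3) in mutant ones, so the rise of the subfamily's share rested on that gene. In fbxb, fbxb-97 (WBGene00016885, chromosome II) held 39.3% and 36.8% of the counts. In fbxc, fbxc-43 (WBGene00045297, chromosome II) held 56.3% and 72.0%, and without it the fbxc share was 0.159% in wild-type libraries and 0.0956% in mutant ones.

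Levels between genes were set side by side as normalised counts per kb of exon, where normalised counts are counts divided by the library's effective size after TMM scaling. The median tested member had 62.1 per kb in fbxa, 43.9 in fbxb and 120 in fbxc in wild-type. The highest wild-type level was that of fbxb-97, at 7190 ± 206 per kb (SD, n = 3), followed by fbxc-43 at 6506, fbxa-218 at 4345, fbxa-120 at 3246 and fbxb-100 at 2763. In the mutants the order of these levels was different, with means of 18088 per kb for fbxa-218, 14536 for fbxc-43, 11760 for fbxb-97, 11434 for fbxa-120 and 2019 for fbxb-100. Thus fbxa-218 stood below fbxb-97 and fbxc-43 in wild-type and above both in the mutants.

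Between wild-type and lotr-1 mutants, 22G-RNAs rose at 53 of the 161 tested members and fell at 19, by edgeR's quasi-likelihood test with cutoffs of 0.1 on the adjusted p and 2-fold on the change. This was 32.9% up and 11.8% down, where 18.8% of all 9285 tested loci rose and 17.6% fell. The subfamilies differed in their balance of directions. In fbxa, 19 rose and 14 fell, with a median log2 fold change of 0.06. In fbxb, 27 rose and 4 fell, with a median of 0.72, and in fbxc 7 rose and 1 fell, with a median of 0.40. The median over all tested loci was 0.01. The difference between subfamilies was not tested, since paralogs are not independent of one another.

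The scaling of the libraries decided many of these calls. TMM factors were 1.35 to 1.39 in wild-type and 0.657 to 0.843 in the mutants, and with total counts in their place the median of all tested loci moved by -0.90 on the log2 scale. With total counts, 17 members rose and 55 fell, against 8.68% and 44.6% of all tested loci, and the split was 6 up and 33 down in fbxa, 8 and 15 in fbxb, and 3 and 7 in fbxc. Relative to the median of all tested loci, the subfamily medians were nearly the same under both scalings, at 0.05 for fbxa, 0.71 and 0.70 for fbxb, and 0.39 and 0.40 for fbxc. A change of scaling shifts all loci by nearly the same amount, so this agreement follows from the arithmetic and is no result. The 17 members that rose with total counts and the 19 that fell with TMM factors were called in the same direction under both. A rise called only with TMM factors was a rise relative to the median locus, and was not called in the gene's share of the library's counts.

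**Figure D2:**
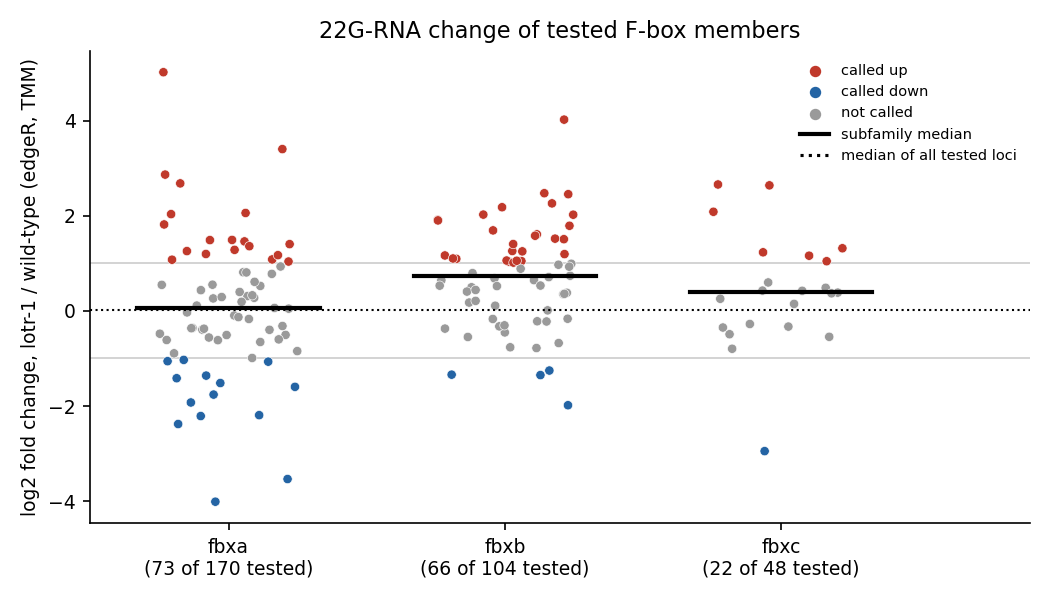
Each point is the log2 fold change of a tested member, lotr-1 over wild-type, by subfamily (edgeR with TMM factors), in red where it was called up, in blue where it was called down and in grey otherwise, and black bars are subfamily medians. The fbxa points spread to both sides of the dotted median of all tested loci. Called down were 14 of 73 fbxa, 4 of 66 fbxb and 1 of 22 fbxc members, against 17.6% of all tested loci.

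The groups did not overlap at 116 members, with all 3 mutant libraries above wild-type at 75 and below it at 41. Over all tested loci these shares were 29.7% above and 32.2% below, 61.8% in all. In fbxb the mutants lay above at 38 and below at 11 of 66 genes, in fbxa above at 26 and below at 25 of 73, and in fbxc above at 11 and below at 5 of 22.

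The largest rise of an fbxa member with at least 100 mean counts was at fbxa-14 (WBGene00022326, chromosome III). Its normalised counts were 26.8, 26.0 and 18.9 in wild-type against 555 in xf58, 992 in xf60 and 790 in xf61, a log2 fold change of 5.02 ± 0.29 (SE, adjusted p = 2.7e-05). The gene fbxa-192 (WBGene00010212, chromosome V, 17640672 to 17650527, minus strand) had 92.5, 102 and 89.7 in wild-type against 351, 1408 and 1245 in mutants, a log2 fold change of 3.40 ± 0.50 (adjusted p = 0.0013). For fbxa-192 the xf58 library stood well below the other alleles. The paper places the transposable element Turmoil2 in an intron of fbxa-192, and the part of that element in these counts was not tested. At fbxa-106 (WBGene00013348, chromosome V) the counts were 165, 148 and 141 in wild-type against 1022, 1126 and 1161 in mutants, a log2 fold change of 2.86 ± 0.15 (adjusted p = 2.3e-05). At fbxa-218 they were 7801, 8375 and 8093 in wild-type against 31521, 38505 and 31016 in the mutants, a change of 2.06 ± 0.14 (adjusted p = 4.5e-05). The spread between libraries was small beside the change at both genes. These 4 genes were called up with either scaling.

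Of the 19 losses, 14 were at fbxa genes. Losses made up 19.2% of the 73 tested fbxa genes, near the 17.6% of all tested loci, 6.06% of fbxb and 4.55% of fbxc. The strongest was at fbxa-61 (WBGene00022486, chromosome III), with 169, 149 and 137 normalised counts in wild-type and 8.30, 12.8 and 7.08 in mutants, a log2 fold change of -4.01 ± 0.24 (adjusted p = 2.9e-05). The raw counts were 221, 212 and 166 against 6, 8 and 5. At fbxa-210 (WBGene00012565, chromosome V) the normalised counts were 164, 152 and 143 in wild-type against 84.4, 51.3 and 42.5 in the mutants, a change of -1.36 ± 0.25 (adjusted p = 0.0038). At fbxa-13 (WBGene00021264, chromosome III) they were 261, 253 and 249 against 133, 115 and 125, a change of -1.03 ± 0.13 (adjusted p = 0.00072), and without the xf60 library the change of -0.99 no longer passed the fold cutoff. The fall was steepest at fbxa-61, and fbxa-13 sat at the edge of the cutoff. The other 11 fbxa genes that fell had fewer than 100 mean counts, such as fbxa-94 at -3.53 ± 0.33 (adjusted p = 0.00018) and fbxa-171 at -2.38 ± 0.31 (adjusted p = 0.00078).

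**Figure D3:**
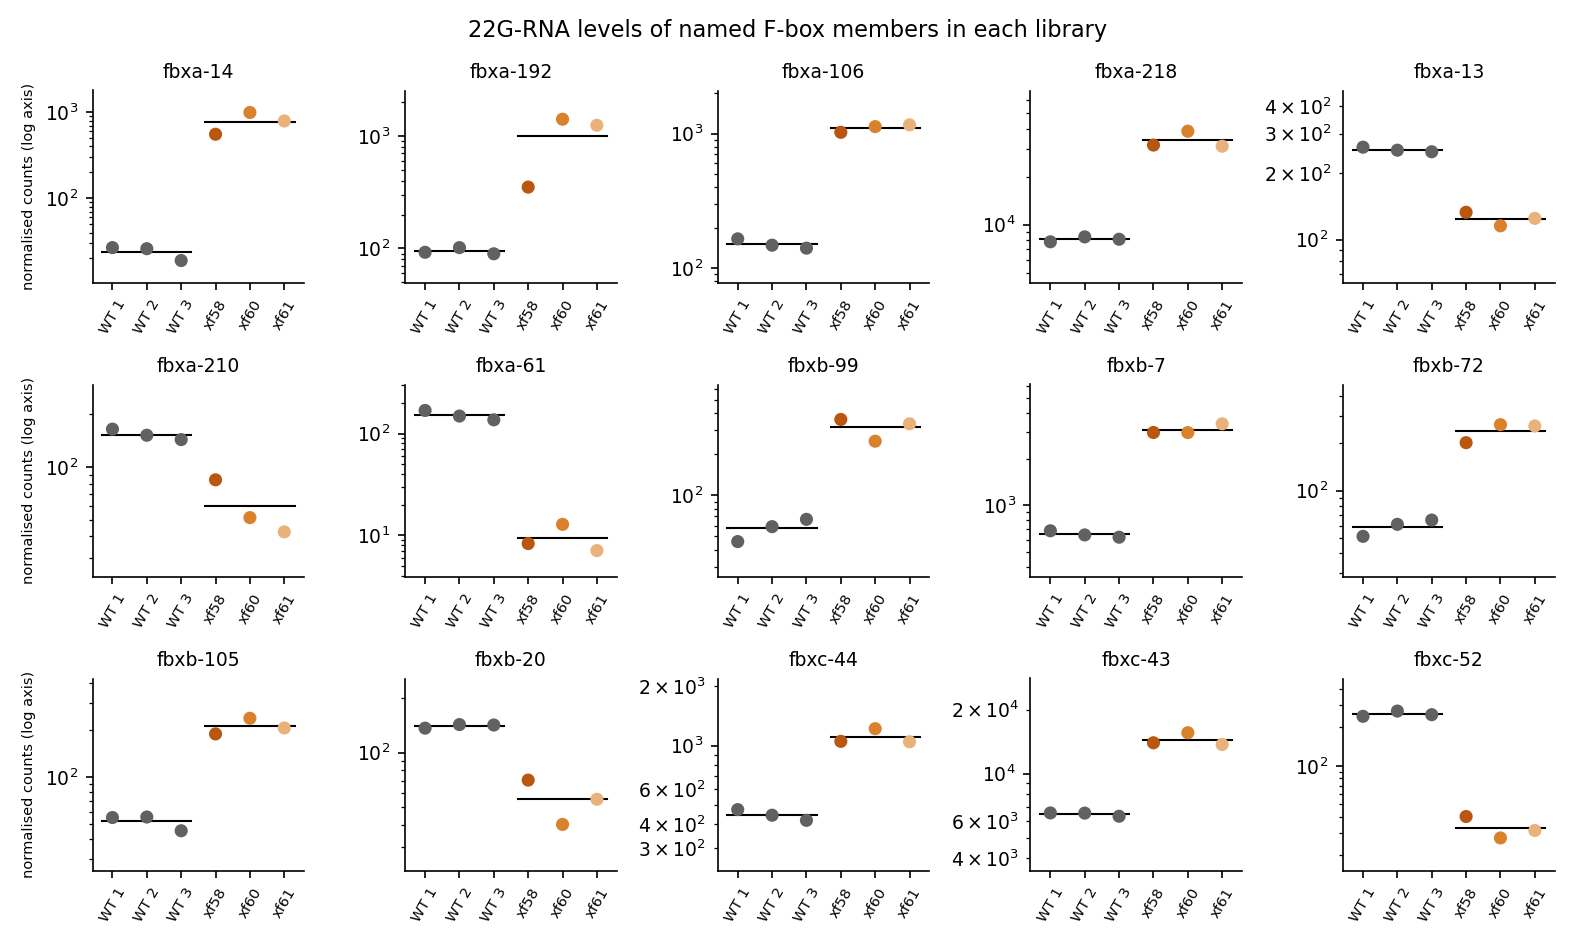
Points are the normalised 22G-RNA counts of 15 named members in each of the 3 wild-type (WT) and 3 lotr-1 libraries, on a log axis that differs between panels, and lines are the means of each group. The naming rule required groups that do not overlap, and xf58 lay lowest of the mutants at fbxa-192 (351) and highest of them at fbxa-210 (84.4).

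The largest rises of fbxb members with at least 100 mean counts were at fbxb-99 and fbxb-7. At fbxb-99 (WBGene00021174, chromosome II) normalised counts were 45.9, 59.0 and 66.7 in wild-type against 358, 248 and 333 in mutants, a log2 fold change of 2.45 ± 0.21 (adjusted p = 0.00013). At fbxb-7 (WBGene00012492, chromosome V) they were 684, 643 and 622 in wild-type against 2975, 2971 and 3388 in the mutants, a change of 2.26 ± 0.14 (adjusted p = 3.0e-05). Genes named for their change were required to have groups that do not overlap, so that their separation is no result. The next largest were fbxb-72 (chromosome V) at 2.02 ± 0.18 (adjusted p = 0.00013) and fbxb-105 (chromosome II) at 2.02 ± 0.16 (adjusted p = 9.9e-05). At low counts, fbxb-68 on chromosome I went from 3.06, 4.21 and 3.29 to 51.2, 56.1 and 70.8. All 5 of these genes were called up with either scaling. The only fbxb gene above 100 mean counts that fell was fbxb-20 (WBGene00022559, chromosome II), from 137, 143 and 142 to 70.5, 40.1 and 55.2, a change of -1.34 ± 0.21 (adjusted p = 0.0017), and it overlaps fbxb-16 by 8 bases on the same strand.

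The 3 fbxb genes with the highest wild-type levels per kb did not move together. At fbxb-97 the normalised counts were 8187, 8357 and 7895 in wild-type against 12030, 14346 and 13598 in mutants, a log2 fold change of 0.71 ± 0.12 (adjusted p = 0.003) that did not reach the fold cutoff, and with total counts it was -0.20. At fbxb-100 (chromosome I) they were 2661, 2707 and 2731 against 1885, 1860 and 2173, a change of -0.45 ± 0.13 (adjusted p = 0.023). At fbxb-85 (chromosome III) they were 2311, 2183 and 2114 against 4238, 5206 and 4735, a change of 1.10 ± 0.13 (adjusted p = 0.00059) that passed the cutoff with TMM factors and was 0.20 with total counts. Libraries of each group lay close together at all 3 genes. The abundant fbxa-67 (chromosome III) went from 4367, 4013 and 3879 to 4569, 5248 and 5566, a change of 0.33 ± 0.13 (adjusted p = 0.078), and was not called. It overlaps a pseudogene by 543 bases on the same strand. For fbxa-120 (chromosome X), 3886, 3768 and 3623 in wild-type became 10069, 15322 and 14333, a change of 1.82 ± 0.18 (adjusted p = 0.00025), which was 0.90 with total counts and then fell short of the cutoff.

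Among fbxc genes, the strongest change was a loss. At fbxc-52 (WBGene00016710, chromosome II) normalised counts were 245, 269 and 252 in wild-type against 40.1, 27.2 and 31.2 in mutants, a log2 fold change of -2.95 ± 0.18 (adjusted p = 3.1e-05). At fbxc-43 they were 6536, 6521 and 6305 in wild-type against 13974, 15575 and 13711 in the mutants, a change of 1.16 ± 0.12 (adjusted p = 0.00027). Its neighbour fbxc-44 changed by 1.32 ± 0.15 (adjusted p = 0.00038). With total counts these rises were 0.26 and 0.41 and were not called, while the loss at fbxc-52 was called under both scalings. The next most abundant fbxc genes, fbxc-39 and fbxc-42, changed by -0.35 ± 0.17 (adjusted p = 0.12) and -0.28 ± 0.16 (adjusted p = 0.19) and were not called.

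Most fbxa genes lay on chromosomes V (71) and III (60), most fbxb genes on chromosome II (58), and the fbxc genes on II (35) and IV (13). The call counts by chromosome are read beside the 18.8% up and 17.6% down of all tested loci, and are small. Of the tested fbxb genes, 5 of 8 rose and 0 fell on chromosome V (median log2 fold change 1.74), 4 of 8 and 0 on I (0.87), 3 of 7 and 0 on III (0.97), and 14 of 38 and 4 on II (0.58). With total counts these became 3 up and 0 down on V, 1 and 1 on I, 0 and 0 on III, and 4 and 13 on II. On IV 1 of 4 tested fbxb genes rose and 0 fell (0.96), and the 1 tested on X was not called (-0.37). With total counts 0 rose and 0 fell on IV, and 0 rose and 1 fell on X. Of the tested fbxa genes, 9 of 31 rose and 5 fell on chromosome V (median 0.05), 6 of 19 and 3 on III (0.31), 2 of 9 and 3 on II (0.06), and 0 of 5 and 2 on I (-0.99). With total counts they became 2 up and 14 down on V, 3 and 7 on III, 1 and 4 on II, and 0 and 3 on I. On X 2 of 7 tested fbxa genes rose and 1 fell (0.26), and on IV 0 of 2 rose and 0 fell (-0.61). With total counts 0 rose and 3 fell on X, and 0 rose and 2 fell on IV.

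Runs of at least 4 members with no more than 50000 bases between neighbours gave 22 clusters that held 216 members, of which 112 were tested. Inside clusters 30 members rose (26.8%) and 14 fell (12.5%), and among the 49 tested members outside clusters 23 rose (46.9%) and 5 fell (10.2%), where 18.8% of all tested loci rose and 17.6% fell. With total counts 12 rose and 40 fell inside, and 5 rose and 15 fell outside. The difference between members inside and outside clusters was not tested. The largest cluster spanned 328 kb of chromosome II from fbxb-43 to fbxb-98, with 29 fbxb, 8 fbxa and 4 fbxc genes. Of its 26 tested members 5 rose, a share near the 18.8% of all tested loci, 3 fell and 18 were not called. With total counts 1 rose and 11 fell. The genes that rose were fbxb-25 at 1.91, fbxb-15 at 1.69, fbxb-26 at 1.52, fbxb-98 at 1.25 and fbxb-18 at 1.19 on the log2 scale. The genes that fell were fbxa-163 at -1.60, fbxb-20 at -1.34 and fbxa-3 at -1.07. The calls of fbxb-18 and fbxa-3 were at the edge of the cutoff: fbxb-18 was at 0.88 without the xf61 library, and fbxa-3 at -0.89 without the xf60 library. In this cluster fbxb-18 also overlaps fbxb-19, and fbxa-3 overlaps the lincRNA gene linc-16, each on the same strand. The rise with total counts was at fbxb-25.

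A second cluster on chromosome II, 181 kb long, held 19 fbxc and 6 fbxb genes, and of 17 tested members 6 rose and 2 fell, or 4 and 7 with total counts. At its fbxc end lay 3 neighbouring genes on the same strand that were all called up, fbxc-31 at 2.64, fbxc-33 at 2.08 and fbxc-29 at 2.66. Raw counts were few, at 34, 31 and 43 in xf58, xf60 and xf61 for fbxc-31 and 14, 12 and 18 for fbxc-29. In xf58 alone fbxc-33 was at 0.71, against 2.27 at fbxc-31 and 2.04 at fbxc-29. At the fbxb end of this cluster fbxb-41 rose by 2.18, from 15.3, 14.0 and 11.5 to 62.2, 59.3 and 65.1. In contrast, fbxb-40 at the end of the run fell, from 41.3, 45.6 and 28.0 to 19.4, 16.0 and 12.7. The cluster on chromosome III from fbxa-61 to fbxa-138 held 27 fbxa genes in 145 kb, of which 9 were tested, 4 rose and 1 fell, or 1 and 2 with total counts, and the median log2 fold change was 0.44. Its summed normalised counts were 920, 906 and 931 in wild-type against 1802, 2045 and 2098 in the mutants. Most of this gain was fbxa-14, without which the sums were 893, 880 and 912 against 1247, 1053 and 1307. Both the largest rise and the largest loss among all tested members, fbxa-14 and fbxa-61, lay in this cluster.

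**Figure D4:**
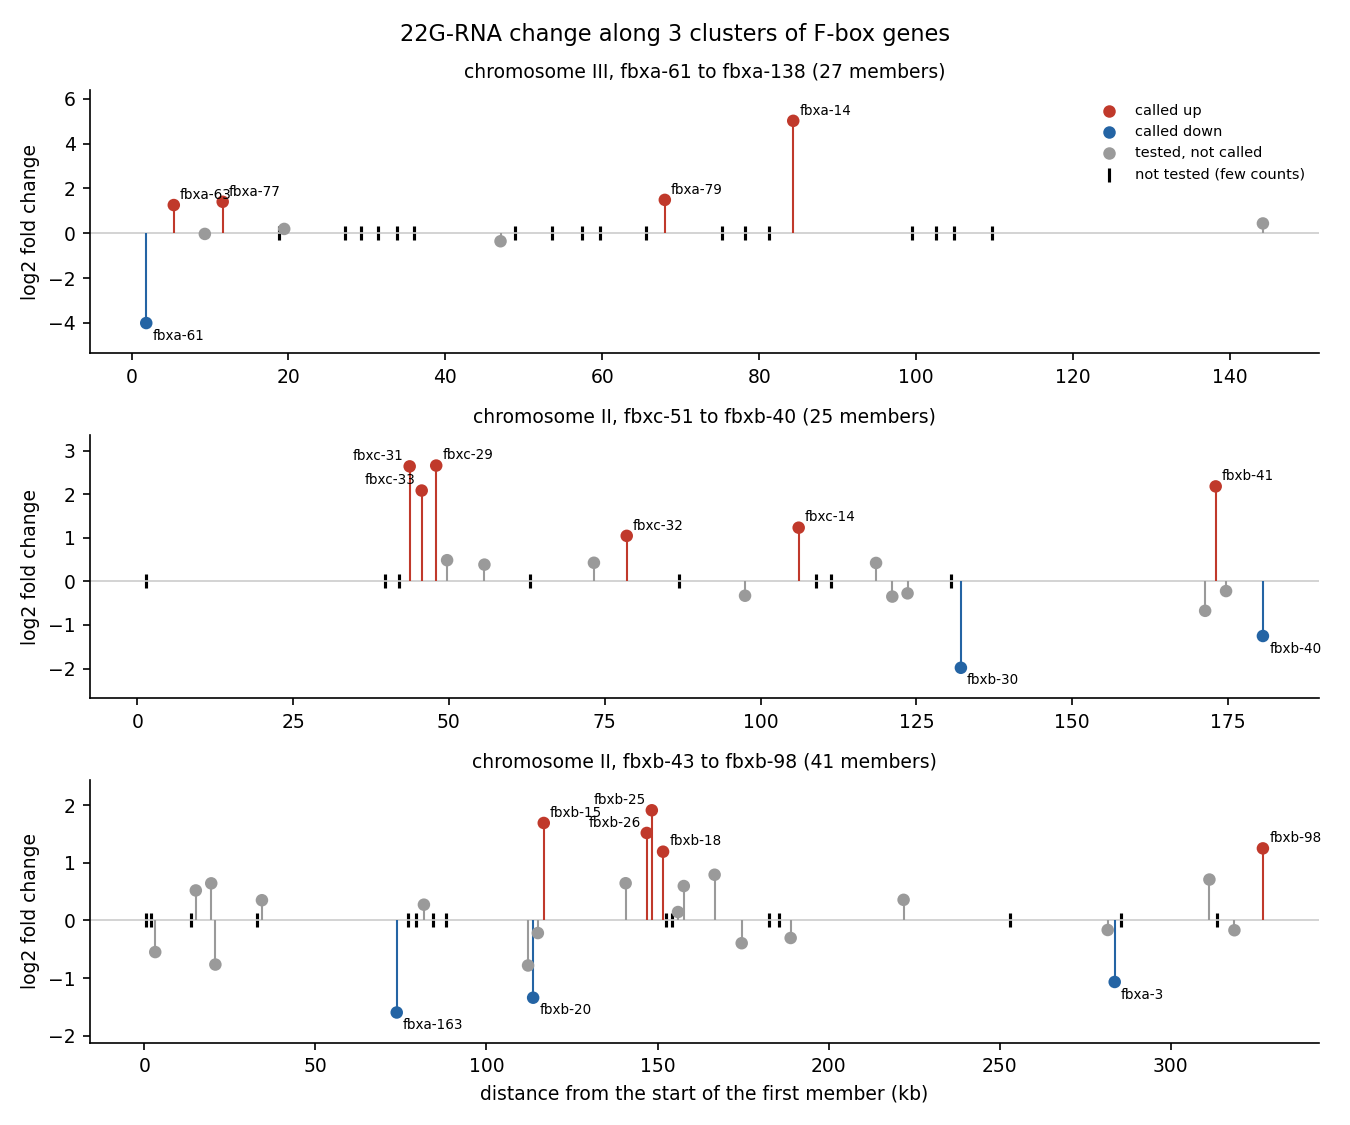
The log2 fold change (lotr-1 over wild-type, edgeR with TMM factors) of tested members is drawn along 3 clusters against the distance in kb from the start of the first member, in red where called up, in blue where called down and in grey otherwise, and ticks mark untested members. At the left of the first cluster, fbxa-61 at -4.01 and fbxa-63 at 1.26 are the only adjacent tested members in the 3 clusters that were called in opposite directions.

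Adjacent members were compared in pairs. Of 221 pairs of adjacent members within 50000 bases, 78 had both genes tested, and their log2 fold changes differed by a median of 1.03. In 40 of these pairs the genes were more than 2-fold apart. Both genes were called in 15 pairs, of which 10 were both up, 2 both down and 3 in opposite directions. Of all tested members, 32.9% rose and 11.8% fell. Pairs of members that are not neighbours were not compared, so these values are no result about neighbours. The opposite pairs were fbxa-61 and fbxa-63, which are 708 bases apart, fbxb-108 at -1.35 and fbxb-105 at 2.02, which are 3462 bases apart, and fbxc-52 at -2.95 and fbxb-92 at 1.40. At fbxa-63 the normalised counts were 223, 224 and 260 in wild-type against 588, 502 and 599 in the mutants, the reverse of fbxa-61. Reads with several equally good places in the genome were put at 1 random place, so close paralogs can exchange counts, and how many positions these genes share was not analysed here.

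With 1 library per allele, the alleles were described and not tested against one another. The effect of an allele and that of the worm population it was grown as cannot be told apart. Each was set against the mean of the same 3 wild-type libraries. In xf58, xf60 and xf61 the tested members had median log2 values of 0.39, 0.31 and 0.43, where all tested loci had -0.02, -0.03 and -0.02. For fbxb it was 0.60, 0.58 and 0.68, for fbxc 0.50, 0.39 and 0.22, and for fbxa -0.04, -0.02 and 0.12 in the same order. More than 2-fold rises were seen at 47, 48 and 55 members in the same order, against 17.3%, 19% and 19.4% of all tested loci. More than 2-fold losses were seen at 13, 26 and 23 members, against 13.2%, 22.6% and 22.2%. At 42 members all 3 alleles were more than 2-fold away on the same side, against 21.4% of all tested loci.

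Of the 72 called members, 45 had their smallest change in xf58, 20 in xf60 and 7 in xf61, and over all called loci xf58 had the smallest change at 62.4%. For the rises this was 29 of 53, against 58.9% of all called rises, and for the losses 16 of 19, against 66.2% of all called losses. No member moved by more than 2-fold one way in xf58 and the other way in both xf60 and xf61, a pattern at 0.355% of all tested loci. The xf58 value was within 2-fold of the mean of xf60 and xf61 at 149 of the 161 members, above it by more at 6 and below it by more at 6. The lowest xf58 values beside the other alleles were at fbxa-192 (1.87 in xf58, 3.87 in xf60 and 3.69 in xf61 on the log2 scale) and fbxc-33 (0.71, 2.41 and 2.45). Among called members the losses at fbxa-216 (-0.87, -3.31 and -2.30) and fbxa-140 (-0.56, -1.59 and -2.61) were much weaker in xf58. In fbxb, 65 of 66 members had xf58 within 2-fold of the other alleles.

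**Figure D5:**
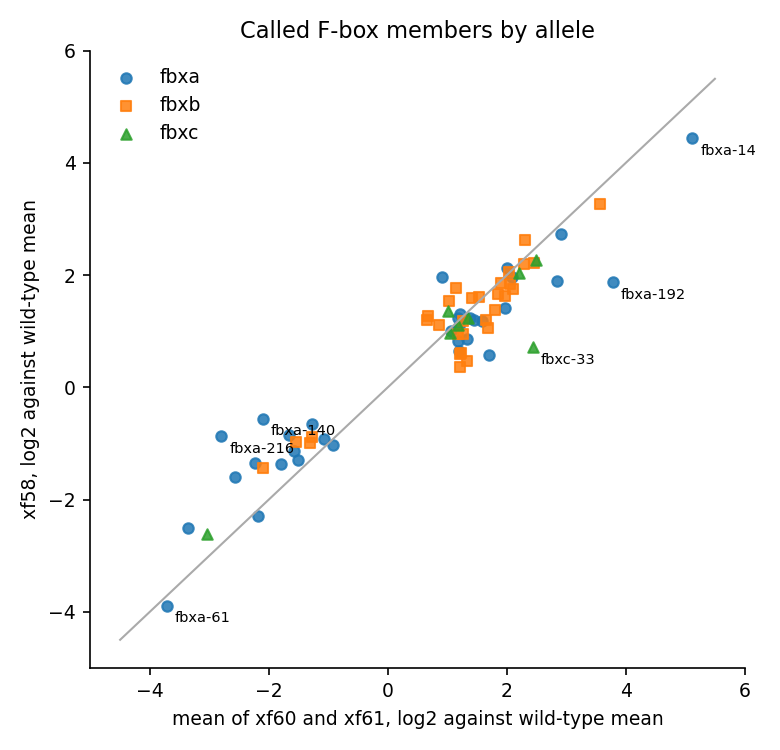
Each point is a called member, with the log2 of its level against the wild-type mean in xf58 on the vertical axis and the mean of the xf60 and xf61 values on the horizontal axis, by subfamily, and the line marks equal values. Most losses lay above the line, that is, nearer to 0 in xf58 (16 of 19 had their smallest change there), and fbxa-192 and fbxc-33 lay far below it.

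The other genes of the SCF ubiquitin ligase were read from the same fit. Of 36 genes on the list that were found, 30 were tested, 7 rose and 2 fell, with a median log2 fold change of 0.04, where 18.8% of all tested loci rose and 17.6% fell. The 9 genes called were skr genes, whose products link the F-box to the cullin. The skr genes, of which 14 were tested, rose at skr-3 by 4.54 ± 0.56 (adjusted p = 0.0006), at skr-4 by 5.00 ± 0.67 (adjusted p = 0.00085), at skr-8 by 3.27 ± 0.28 (adjusted p = 0.00012) and at skr-10 by 1.98 ± 0.21 (adjusted p = 0.0003). For skr-3 the normalised counts were 41.3, 47.0 and 29.6 in wild-type against 315, 1173 and 1272 in the mutants. Thus xf58 was the lowest mutant library there, as it was at skr-4, skr-8 and skr-15. The xf58 library was the highest of the mutants at skr-10 (694 against 431 in xf60 and 569 in xf61). It was also the highest at skr-7 (48.4 against 25.6 and 42.5), and lay between the others at skr-9. Smaller rises were called at skr-9 (2.41), skr-7 (1.53) and skr-15 (1.09), and skr-15 was not called without wild-type library 2 (0.81), xf60 (0.97) or xf61 (0.92). At skr-18 a loss of -1.16 ± 0.20 (adjusted p = 0.0031) was called, and without xf61 it was just short of the fold cutoff. At skr-1, a Skp1 ortholog, a loss of -1.18 ± 0.47 (adjusted p = 0.074) rested on few counts, from 25.2, 16.9 and 21.4 to 16.6, 8.01 and 2.83, and it was not called without wild-type library 1 (-1.04, adjusted p = 0.19), wild-type library 3 (-1.18, 0.15), xf60 (-1.10, 0.17) or xf61 (-0.73, 0.19). The cullin gene cul-1 had 125, 130 and 110 in wild-type against 131, 157 and 137 in the mutants, a change of 0.22 ± 0.15 (adjusted p = 0.25). With total counts, 5 genes of the list rose and 13 fell. The single F-box genes lin-23, sel-10 and prom-1, which act in cell division control, Notch signalling and meiosis, were not called, at -0.37, -0.89 and 0.11. Of these, sel-10 missed only the fold cutoff (adjusted p = 0.020), and lin-23 and sel-10 were called down with total counts. The F-box genes mec-15 (-0.73, adjusted p = 0.0049) and fog-2 (0.82, adjusted p = 0.019) also missed only the fold cutoff.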

How the data were processed

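Small RNA libraries of gravid C. elegans adults (3 of wild-type N2 and 1 each of lotr-1 xf58, xf60 and xf61) were analysed. The authors removed adapters with cutadapt 2.4 and mapped the reads with Bowtie 1.2.2 on WBcel235. Reads of 22 bases with a first G, antisense to genes or transposons, were counted with featureCounts 1.6.2. The authors deposited these counts as whole numbers per locus, not normalised. Reads with several equally good places were put at 1 random place. Gene symbols, positions and exon lengths came from Ensembl release 115 on the same build, and symbols of pseudogenes from RefSeq by matching coordinates.

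Counts of all loci were filtered with filterByExpr, scaled with TMM factors and tested in R 4.3.3 by edgeR 4.0.16 (quasi-likelihood), with the 3 alleles taken as triplicates as in the study. Calls needed an adjusted p under 0.1 (Benjamini-Hochberg over all tested loci) and more than a 2-fold change. The SE given with a log2 fold change was derived from the test, as its absolute value divided by the square root of the quasi-likelihood F. For normalised counts, each library was scaled from its effective size to the mean effective size of the 6 libraries. Values of a single allele used a prior count of 2. Nothing in the labels says that libraries came from separate cultures, so p-values measure the spread between these libraries. Total counts were 3706296 to 4520488, and intervals are Wilson intervals for counting error. Alternatives were DESeq2 1.42.0 with and without a test against a 2-fold change, edgeR's test against a 2-fold change, other scalings, filters and thresholds, a replicate block, and leaving out each library. The procedure was tested on simulated data with the same dispersion in both groups. The real groups differed in dispersion, so that test does not show how the procedure handles their unequal spread.

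Members and gene lists were chosen with earlier results of these data known. Genes named were fbxa-192, which the paper names, per subfamily the 4 largest rises and 4 largest losses among called members with at least 100 mean counts and groups that do not overlap, the 3 highest wild-type levels per kb, members of the cluster with the most calls (a tie at 8 went to the cluster with more members) and called genes of the ubiquitin ligase list. Other genes were named after their values were seen. On that list skr-11 and uba-3, and among the sperm markers ssp-9, were not used, since the symbol did not match a single protein-coding gene in the table.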

Additional observations from a re-analysis of the deposited data

How the results depend on the processing

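Main counts were 53 members up and 19 down. Tests against a 2-fold change itself gave fewer calls, 20 up and 6 down with DESeq2 and 31 and 12 with edgeR, by subfamily 8 and 4 or 11 and 9 for fbxa, 10 and 1 or 16 and 2 for fbxb, and 2 or 4 up for fbxc, and 0 losses on the ubiquitin ligase list with either. With total counts the split turned to 17 up and 55 down (fbxa 6 and 33, fbxb 8 and 15, fbxc 3 and 7, and 13 losses on the ubiquitin ligase list). Allele medians turned with it, at -0.28, -0.65 and -0.50 for all members in xf58, xf60 and xf61, -0.73, -1.03 and -0.76 for fbxa, -0.053, -0.41 and -0.23 for fbxb and -0.15, -0.59 and -0.66 for fbxc. The ratio of summed levels, mutant over wild-type, was 2.07 for all members, 2.39 for fbxa and 1.74 for both fbxb and fbxc with TMM factors, and 1.10, 1.28, 0.933 and 0.937 with total counts. Without a fold cutoff 33 members fell (22 fbxa, 8 fbxb and 3 fbxc), with 7 losses on the ubiquitin ligase list, which had 5 without a count filter and 1 at an adjusted p under 0.05. Leaving out each library gave 49 to 57 members up and 18 to 24 down, 1 to 2 fbxc losses and 0 to 6 ubiquitin ligase losses. Of the calls, 41 up and 15 down remained whichever library was left out, and 15 up and 6 down remained in all 15 refitted alternatives (those with another cutoff on the same fit aside). DESeq2 size factors, TMM factors without transposons and a mean of at least 10 counts left the member counts within 1.5 times, and a cluster gap of 100000 bases put 225 in place of 216 members in clusters.

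With the replicate number as a block, 50 members rose and 19 fell, and 69 calls were shared with the fit without it. The deviations of libraries with the same number correlated at 0.01, 0.03 and -0.03, so the numbers did not pair the libraries, and not every library correlated best with its own number. The planned restriction to members with few shared 22-base positions was not run, since no genome sequence was at hand. Random placement of reads among paralogs therefore limits single members, and whether it does so more inside clusters was not analysed. Members with few counts limit what can be seen: 161 of 322 were not tested, which does not show that they did not change.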

Other observations

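Pseudogenes named in RefSeq as fbxa, fbxb or fbxc genes were not among the members, and 69 of them matched a counted locus. Of 40 tested, 14 rose and 9 fell, with a median log2 fold change of 0.50, where 18.8% of all tested loci rose and 17.6% fell. They held 0.563% to 0.572% of all counts in wild-type, against 0.729%, 0.817% and 0.824% in the xf58, xf60 and xf61 libraries. The most abundant of those called, fbxa-203, had 5570, 5472 and 5379 normalised counts in wild-type and 15622, 20868 and 20213 in mutants, a log2 fold change of 1.79 (edgeR, adjusted p = 0.00011). The largest rise was at fbxa-168, from 11.5, 9.83 and 8.23 to 129, 684 and 639, a change of 5.60 (adjusted p = 0.00061), and it overlaps the member fbxa-169 by 321 bases on the same strand. The largest loss was at fbxa-46, from 301, 350 and 319 to 13.8, 30.4 and 18.4, a change of -3.96 (adjusted p = 4.5e-05). These genes were chosen after their values were seen.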
